A study of Homo sapiens with 6 samples.

Results

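IFIT2, IFIT3, HERC5 and SAMD9 are interferon-induced genes, and they were taken by name from a table of 1877 genes that had been deposited as differing after depletion of RNF5. All 4 were in the table. The table came from 6 RNA-seq libraries of LP-1, an established human multiple myeloma line. A short hairpin RNA against RNF5 had been used for 3 libraries (RNF5 KD), and the other 3 were non-target controls (Ctrl). Cells of both groups were kept in RPMI-1640 with 15% FBS. RNF5 encodes a ubiquitin ligase anchored in the membrane of the endoplasmic reticulum. The labels name neither the hairpins nor the time to harvest. They also do not say if each library came from its own culture, so p-values reflect only how far these libraries differ, which may be technical.

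Type I interferons bind a receptor on the cell surface whose kinases activate transcription factors in the cytoplasm. In the nucleus these bind a short DNA motif, the interferon-stimulated response element, in the promoters of their target genes. IFIT2 and IFIT3 encode tetratricopeptide repeat proteins that bind RNA or other IFIT proteins and restrict viral replication. IRF3, activated by sensors of viral nucleic acid, can also induce IFIT genes without interferon. HERC5 encodes a HECT-type ligase that attaches the ubiquitin-like protein ISG15 to newly made proteins. SAMD9 encodes a large cytoplasmic protein that restricts poxviruses and lowers protein synthesis.

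IFIT2 (ENSG00000119922) and IFIT3 (ENSG00000119917) lie next to each other on chromosome 10, HERC5 (ENSG00000138646) on chromosome 4 and SAMD9 (ENSG00000205413) on chromosome 7. In GENCODE release 29 the principal transcripts of IFIT2 and IFIT3 carry 99.6% and 99.7% of their coding sequence in a single exon, and that of SAMD9 has all of it in 1 exon. The HERC5 coding sequence is spread over 23 exons. Upstream sequence is shown for the 3 genes with an entry in the RefSeq promoter table (build GRCh38.p14), because it holds the core of the interferon-stimulated response element, printed in capitals. The core searched was 2 copies of GAAA separated by any 2 bases, read on both strands, so that it also appears as 2 copies of TTTC with the same spacing. Each stretch is given 5′ to 3′ on the strand of the gene and leaves out bases that GENCODE places in an exon. That of IFIT3 is chr10:89327747-89327893 on the plus strand, that of HERC5 is chr4:88456869-88457116 on the plus strand, and that of SAMD9 is chr7:93118024-93118229 on the minus strand.
IFIT3: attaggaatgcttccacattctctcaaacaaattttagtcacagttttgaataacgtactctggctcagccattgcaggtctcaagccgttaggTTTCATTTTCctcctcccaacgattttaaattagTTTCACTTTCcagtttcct
HERC5: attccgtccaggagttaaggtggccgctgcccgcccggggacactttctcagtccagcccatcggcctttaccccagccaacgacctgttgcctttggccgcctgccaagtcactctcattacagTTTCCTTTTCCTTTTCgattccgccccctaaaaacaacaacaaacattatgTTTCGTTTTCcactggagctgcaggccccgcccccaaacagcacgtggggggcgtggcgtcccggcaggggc
SAMD9: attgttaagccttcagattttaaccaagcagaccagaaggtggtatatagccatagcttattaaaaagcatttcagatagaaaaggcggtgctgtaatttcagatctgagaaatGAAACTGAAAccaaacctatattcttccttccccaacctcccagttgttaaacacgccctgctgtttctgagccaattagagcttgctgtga

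The IFIT3 stretch held 2 matches, whose first bases lay at -156 and -122 relative to the annotated start. A second annotated IFIT3 start had 2 further matches, at -94 and -51. The HERC5 stretch held 3 matches, at -125, -119 and -74, of which the first pair overlap. SAMD9 held 1 match, at -136. Of all 35116 promoter windows of 300 bases in that table, 3.57% held the core, and by gene the share was 4.38% of 27305 genes and 4.42% of the 1086 deposited genes with an entry. SAMD9, the member that was higher in the knockdown, and IFIT3 and HERC5, which were lower, thus all held the motif. A match describes these letters and is not a measured binding site.

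The values per library are a normalized abundance whose unit no label or header names. They were compared with limma on log2(value + 1), over the 1290 genes that reached a value of 1 in no fewer than 3 libraries, with Benjamini-Hochberg adjustment over those genes. Every gene had been selected by the authors on these same libraries, and limma called 97.7% of the 1290 genes changed (55.7% higher and 42.0% lower), so a call alone does not set a member apart from the other genes. RNF5, the targeted gene, was at 95.4, 81.35 and 88.44 in the knockdown libraries, which was 5.90% of the control mean, so its level followed the labels. Summed over the selected genes, the values reached 116842.76 to 122078.57 per knockdown library and 90824.85 to 93974.96 per control library. Such a sum is no sequencing depth, which is unknown. Of 10 plasma cell markers only SDC1 was in the table, at 9.2 to 14.45 in controls and 34.13 to 36.19 in knockdown libraries. Of 5 fibroblast markers only COL1A1 was listed (at most 0.72 in any library). None of 6 B cell, 6 T and NK cell and 8 myeloid and dendritic cell markers was in the table. The labelled cell type could therefore not be checked further, and a marker that is not in the table has no value here.

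IFIT3 lost most of its transcript in all 3 knockdown libraries. Controls 1, 2 and 3 were at 11.75, 9.63 and 8.38, and the libraries of RNF5-depleted cells, in the same numbering, at 1.24, 1.28 and 0.93. The lowest control value was 6.55 times the highest knockdown value, and the 3 knockdown values lay close together. The mean of 9.92 ± 1.70 (SD, n = 3) in the control compared with 1.15 ± 0.192 in the knockdown, or 11.6% of the control level. On the log2(value + 1) scale IFIT3 fell by 2.34 (SE 0.20, limma adjusted p = 2.94e-06). The log2 ratio of the 2 means was -3.11, since adding 1 shrinks the change of a gene near 1, and the authors' deposited table gave -3.29. In RNA from whole cultures, fewer cells with a transcript and less transcript per cell cannot be told apart.

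IFIT2 was nearly lost from the knockdown libraries. Controls 1, 2 and 3 had 3.02, 2.60 and 1.90, whereas the knockdown libraries had 0.03, 0.11 and 0.16. The groups did not overlap, and the 3 knockdown values differed 5.33-fold among themselves, against 1.59-fold among the controls. The knockdown mean of 0.10 ± 0.0656 was 3.99% of the control mean of 2.51 ± 0.566 (n = 3 each). IFIT2 fell by 1.66 on the log2(value + 1) scale (SE 0.15, limma adjusted p = 4.10e-06), but it entered the fit only through its 3 control values and so had to differ. With a pseudocount of 0.1 the log2 fold change was -3.74, beyond that of IFIT3 on the same scale (-3.0), whereas with 1 it was the smaller change, so the fitted values do not set the order of the IFIT genes. The log2 ratio of the group means was -4.65, and the authors' deposited table gave -5.29.

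HERC5 was lower as well, with a larger part of its control level left. Its values were 9.28, 7.92 and 6.60 in control libraries 1 to 3 and 3.53, 3.10 and 2.90 in knockdown libraries 1 to 3. The closest libraries of the 2 groups were still 1.87-fold apart. The mean went from 7.93 ± 1.34 to 3.18 ± 0.322 (n = 3 each), 40.0% of the control level, and HERC5 fell by 1.09 on the log2(value + 1) scale (SE 0.20, limma adjusted p = 0.000326). The log2 ratio of the group means was -1.32, and the authors' deposited log2 fold change was -1.50.

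SAMD9 moved the other way. It was at 3.44, 2.49 and 2.21 in control libraries 1 to 3 and at 5.63, 7.12 and 6.85 in knockdown libraries 1 to 3. Every knockdown library was above every control library, the closest by 1.64-fold. The mean rose from 2.71 ± 0.645 to 6.53 ± 0.794 (n = 3 each), a 2.41-fold difference (log2 fold change 1.03 on the log2(value + 1) scale, SE 0.20, limma adjusted p = 0.000555). The log2 ratio of the group means was 1.27, and the authors' deposited log2 fold change was 1.09. With each library centred on its own median SAMD9 was higher by 0.66. The median log2 fold change of all 1290 genes was 0.73, which itself depended on which genes passed the filter. It was 0.27, 0.16 and 0.23 without knockdown library 1, 2 and 3, and -0.10 over 1874 genes with no filter.

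**Figure D1:**
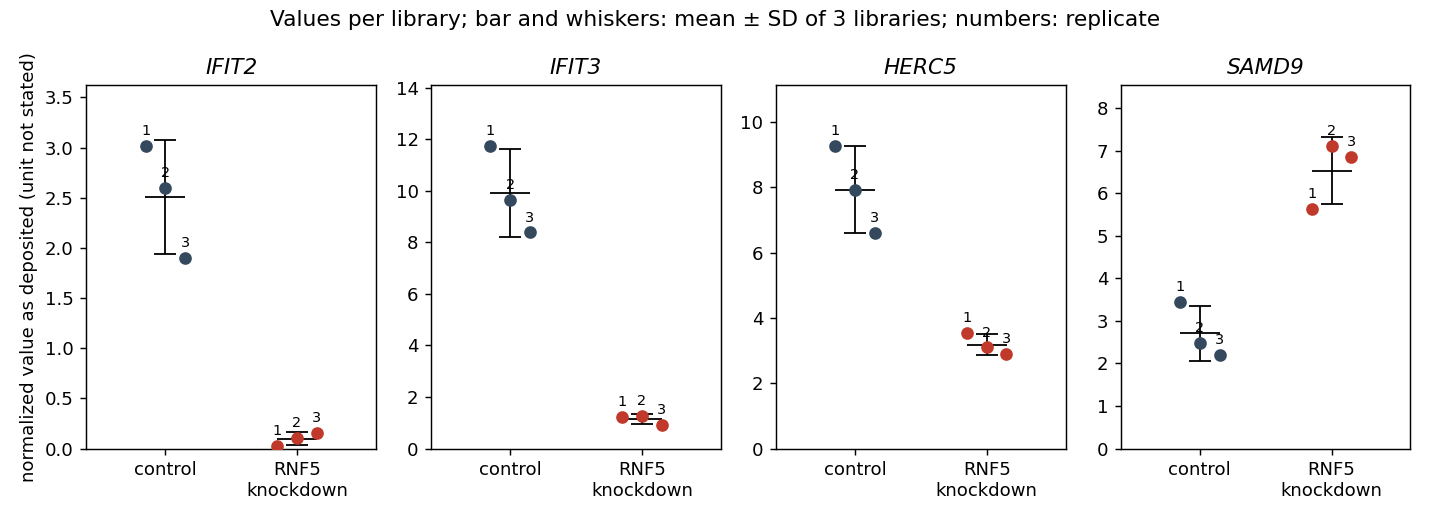
Normalized value (vertical axis, unit not stated, a separate scale from 0 for each gene) of IFIT2, IFIT3, HERC5 and SAMD9 in 3 control and 3 RNF5 knockdown libraries, with the mean and SD as bar and whiskers and the replicate number beside each point. IFIT2, IFIT3 and HERC5 lie lower and SAMD9 higher in all 3 knockdown libraries, with no overlap between the groups for any of the 4 genes.

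For each of the 4 genes the exact 2-sided permutation test gave p = 0.1, the smallest that 3 against 3 libraries allow. The groups did not overlap in 4 of 4 members, against 93.2% of all 1877 listed genes, 45.5% with the knockdown lower and 47.7% with it higher. The control libraries stood in the same order in all 4 genes, with library 1 highest and library 3 lowest, whether the gene was lower or higher after knockdown. That order also held in 557 of the 1290 fitted genes (43.2%), and its part in the results was not tested. The knockdown libraries had no common order.

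Ratios of 2 genes within a library do not depend on how the libraries were scaled. The ratio of SAMD9 to HERC5 was 0.371, 0.314 and 0.335 in the control libraries and 1.59, 2.30 and 2.36 in the knockdown libraries, a 6.13-fold difference of the means. The ratio of IFIT3 to HERC5 was 1.27, 1.22 and 1.27 in the controls and 0.351, 0.413 and 0.321 in the knockdown, so IFIT3 kept a smaller part of its control level than HERC5 in each knockdown library. For IFIT2 over IFIT3 the controls were at 0.257, 0.270 and 0.227 and the knockdown libraries at 0.0242, 0.0859 and 0.172. Here the knockdown mean was 0.374 of the control mean, 0.219 of it without knockdown library 3 and 0.513 without knockdown library 1. This ratio rests on low IFIT2 values, 0.03 to 0.16 in the knockdown libraries. Each of these 3 ratios separated the groups, with the smallest possible exact permutation p of 0.1. After Benjamini-Hochberg adjustment over the 6 ratios computed it was 0.15. For SAMD9 over HERC5 this outcome was fixed, since neither gene overlapped between the groups and the 2 genes moved in opposite directions. Its p-value therefore adds nothing to the values of the single genes. These ratios compare libraries for 1 gene pair and say nothing of which gene of a pair was more abundant.

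**Figure D2:**
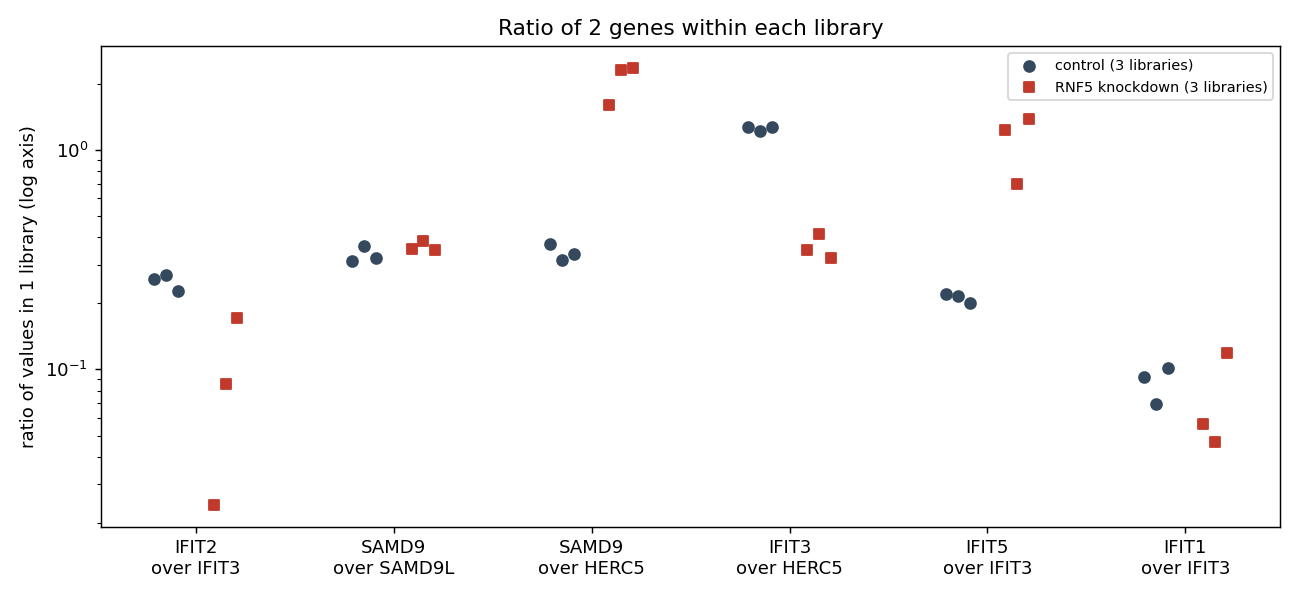
Ratio of the normalized values of 2 genes within 1 library (log axis) for 6 gene pairs, with control libraries as dark circles and RNF5 knockdown libraries as red squares, 3 of each. SAMD9 over SAMD9L and IFIT1 over IFIT3 overlap between the groups, and the other 4 ratios do not.

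The relatives of the members that were in the table lay beside them on the chromosome. In the RefSeq order of protein-coding genes on chromosome 10, IFIT2 is followed by IFIT3, IFIT1B, IFIT1 and IFIT5, and 4 of these 5 genes were listed, IFIT1B being the other. IFIT1, whose protein binds viral RNA that lacks the methylated cap of host messengers, was at 1.08, 0.67 and 0.85 in the controls and 0.07, 0.06 and 0.11 in the knockdown libraries. It did not reach the minimum level for the fit, and its mean was 9.23% of the control mean. Its ratio to IFIT3 overlapped between the groups, with means of 0.0876 ± 0.0164 in the control and 0.0739 ± 0.0388 in the knockdown (exact permutation p = 0.7, adjusted 0.7, n = 3 each). The wide spread in the knockdown libraries, where IFIT1 was at most 0.11, leaves a difference between the 2 genes undetermined.

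IFIT5 was at 2.58, 2.07 and 1.68 in the controls and 1.52, 0.89 and 1.28 in the knockdown libraries, a mean of 58.3% of the control. It fell by 0.48 on the log2(value + 1) scale (SE 0.18, limma adjusted p = 0.0203), a call that was lost without control library 1, without knockdown library 2 and without knockdown library 3 (adjusted p = 0.0643, 0.123 and 0.0521, within 0.000677 to 0.123 over 14 alternatives). Its log2 fold change was -0.74 with a pseudocount of 0.1 and -0.85 with each library centred on its median. The ratio of IFIT5 to IFIT3 was 0.212 ± 0.00996 in the control and 1.10 ± 0.358 in the knockdown, without overlap (exact permutation p = 0.1, adjusted 0.15, n = 3 each). Within this gene cluster IFIT5 therefore kept a larger part of its control level than IFIT3 in each of the 3 knockdown libraries.

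SAMD9L, the neighbour and paralog of SAMD9 on chromosome 7, was also higher. Its values were 11.08, 6.84 and 6.85 in the control libraries and 15.93, 18.53 and 19.52 in the knockdown libraries, again with control library 1 the highest of its group. The mean rose 2.18-fold (log2 fold change 1.06, SE 0.21, limma adjusted p = 0.000613), and with each library centred on its median the difference was 0.69. The ratio of SAMD9 to SAMD9L averaged 0.363 ± 0.0186 after knockdown, against 0.332 ± 0.0281 in the control, and overlapped between the groups (exact permutation p = 0.3, adjusted 0.36, n = 3 each). No interferon-stimulated core was present in the SAMD9L window. HEPACAM2, which encodes a cell adhesion protein and follows SAMD9L in the gene order, had lower values in the knockdown. It was at 0.71, 1.18 and 0.85 in the controls and 0.20, 0.22 and 0.14 in the knockdown libraries, too low for the fit. HERC6 and HERC3, the relatives of HERC5 near it on chromosome 4, were not among the listed genes, and neither was HERC4. No source here says how reads shared between paralogs were counted.

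**Figure D3:**
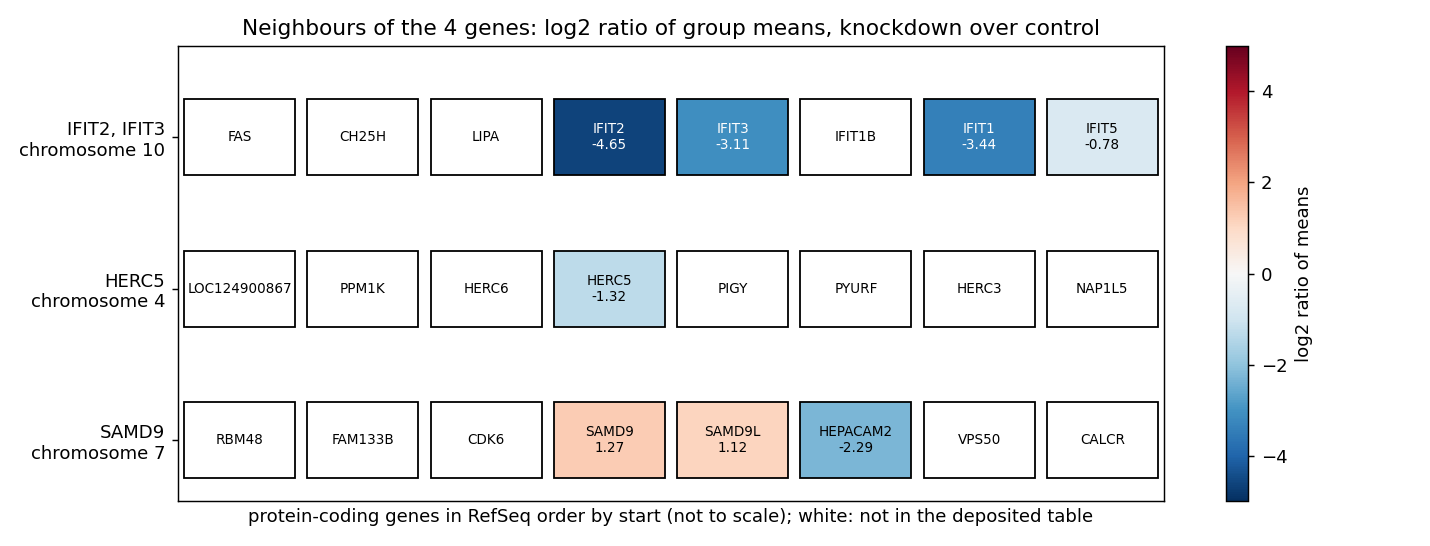
Order of protein-coding genes around the 4 members, each box 1 gene (not to scale), coloured and labelled by the log2 ratio of the group means, knockdown over control, and white where a gene was not in the deposited table. The listed IFIT genes are all lower, SAMD9 and SAMD9L are both higher, and HEPACAM2 is lower.

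The wider interferon pathway was read from a list of 155 genes, of which 20 were in the table, the 4 members included. The authors' deposited table listed 14 of the 20 as lower and 6 as higher, beside 50.8% lower and 49.2% higher over all listed genes. Of the 20 genes, 12 entered the fit and all 12 passed, 7 lower and 5 higher, beside 42.0% lower and 55.7% higher over all genes (97.7% in all). IFIT2, DDX60 and RTP4 entered only through the group in which they were high. The filter thus fixed that their groups would not overlap, and their passing adds no support. The median log2 fold change of the 12 was -0.68, beside 0.73 for all 1290 genes, but the genes that pass the filter set its sign. It was 0.22, 0.11 and 0.04 without control library 1, 2 and 3, when 10 list genes were fitted (all fitted genes 0.86, 0.82 and 0.73). Without knockdown library 1, 2 and 3, when 11 were fitted, it was -0.82, -0.94 and -0.87 (all fitted genes 0.27, 0.16 and 0.23). Over the 6 list genes at 1 or more in all libraries it was 1.05 (all fitted genes 0.81). With no filter it was -0.46 over 20 list genes (all fitted genes -0.10). With each library centred on its median it was -1.05 over the 12 genes. The other 8 were below the minimum level. Groups did not overlap for 17 of the 20 genes, 12 with the knockdown lower and 5 with it higher, while 93.2% of all listed genes did not overlap (45.5% lower and 47.7% higher). All 14 genes for interferons and their receptors were without values, as were 14 of 15 signalling and transcription factor genes, IRF3, IRF7 and IRF9 among them. A gene outside the table cannot be called unchanged.

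Upstream of the members, IKBKE was the listed signalling gene. It encodes a kinase that phosphorylates IRF3 and IRF7, and it rose 3.01-fold, from 6.97, 7.23 and 4.55 to 17.9, 19.09 and 19.36. Its log2 fold change was 1.47 (SE 0.20, limma adjusted p = 6.01e-05). Of 15 sensors and adaptors, 2 were listed, both with lower values and both too low for the fit. RIGI, the sensor of viral RNA also called RIG-I, averaged 0.823 ± 0.104 without and 0.347 ± 0.170 with RNF5 depletion. IFI16, a sensor of DNA, was at 0.610 ± 0.161 and 0.227 ± 0.0503.

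UBA7, which activates ISG15 at the first step of the conjugation that HERC5 completes, fell with HERC5. Its abundance was 7.46, 6.67 and 8.22 in the control libraries and 0.55, 1.62 and 1.51 in the knockdown libraries, 16.5% of the control mean. On the log2(value + 1) scale it fell by 1.96 (SE 0.23, limma adjusted p = 2.22e-05). ISG15 itself, the conjugating enzyme gene UBE2L6 and USP18, whose product removes ISG15, were not in the table. UBA7 did not share the order of the control libraries seen in the 4 members, since control library 3 was its highest.

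Among 69 further interferon-induced effector genes, 8 were listed. SLFN5, of the Schlafen family, fell to 50.1% of the control level (22.9 ± 3.36 against 45.7 ± 11.1, log2 fold change -0.95 with a limma adjusted p = 0.00121). DDX60, a helicase linked to RIG-I signalling, fell to 26.1% (0.427 ± 0.116 against 1.63 ± 0.420, log2 fold change -0.88 with a limma adjusted p = 0.000206). RTP4, a chaperone of membrane receptors that is induced by interferon, rose to 1.47 ± 0.0751 from a control level of 0.503 ± 0.167, a log2 fold change of 0.72 (limma adjusted p = 0.000335). DDX60 and RTP4 entered the fit only through the group in which each was high and so had to differ. On the log2 scale with a pseudocount of 0.1 their differences were -1.72 and 1.42, and with each library centred on its median that of RTP4 was 0.36.

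The other 5 effectors were too low for the fit. OASL, of the oligoadenylate synthetase family, was at 0.75, 1.10 and 1.04 in the controls and 0, 0.14 and 0.05 in the knockdown libraries. IFI44 was at 0.46, 0.35 and 0.59 and at 0, 0.15 and 0.19. LAMP3, a lysosomal membrane protein gene, was at 2.0, 1.96 and 0.53 in the controls and 0.39, 0.63 and 0.67 in the knockdown, so control library 3 lay among the knockdown libraries. LGALS3BP and SLFN11 overlapped between the groups as well. Of 25 antigen presentation genes 1 was listed, CIITA, the activator of class II genes, which rose 3.29-fold to 17.9 ± 2.58 above a control level of 5.43 ± 1.26, by a log2 fold change of 1.56 (SE 0.21, limma adjusted p = 4.50e-05).

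**Figure D4:**
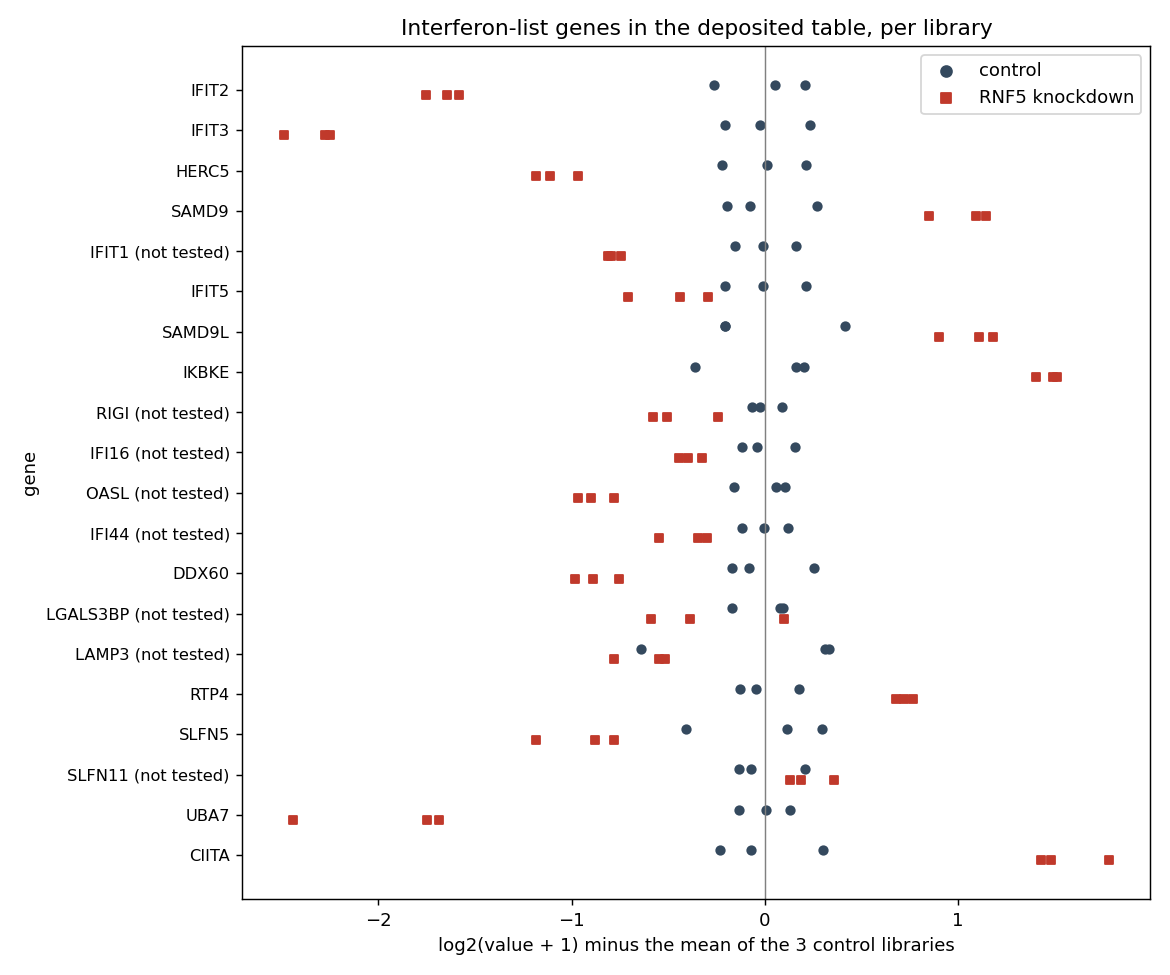
Difference from the mean of the 3 control libraries on the log2(value + 1) scale for the 20 listed genes of the interferon list, 1 point per library, with control libraries as dark circles and RNF5 knockdown libraries as red squares. IFIT3 and UBA7 lie farthest to the left and CIITA and IKBKE farthest to the right, and the knockdown and control points of LGALS3BP, LAMP3 and SLFN11 overlap.

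The response element core was found on both sides of this split. Of the 20 genes, 14 had a promoter entry and 9 of these held the core in at least 1 window. They were 7 of 9 genes that the authors listed as lower and 2 of 5 listed as higher, the latter being SAMD9 and RTP4. RTP4 had 2 matches, at -42 and -18, and DDX60, which was lower, had 2 at -88 and -53. No match was found in the windows of IFI16, RIGI, IKBKE, SAMD9L and SLFN11. The list was made of genes known for their interferon response, so a share above that of all promoters follows from how it was chosen.

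**Figure D5:**
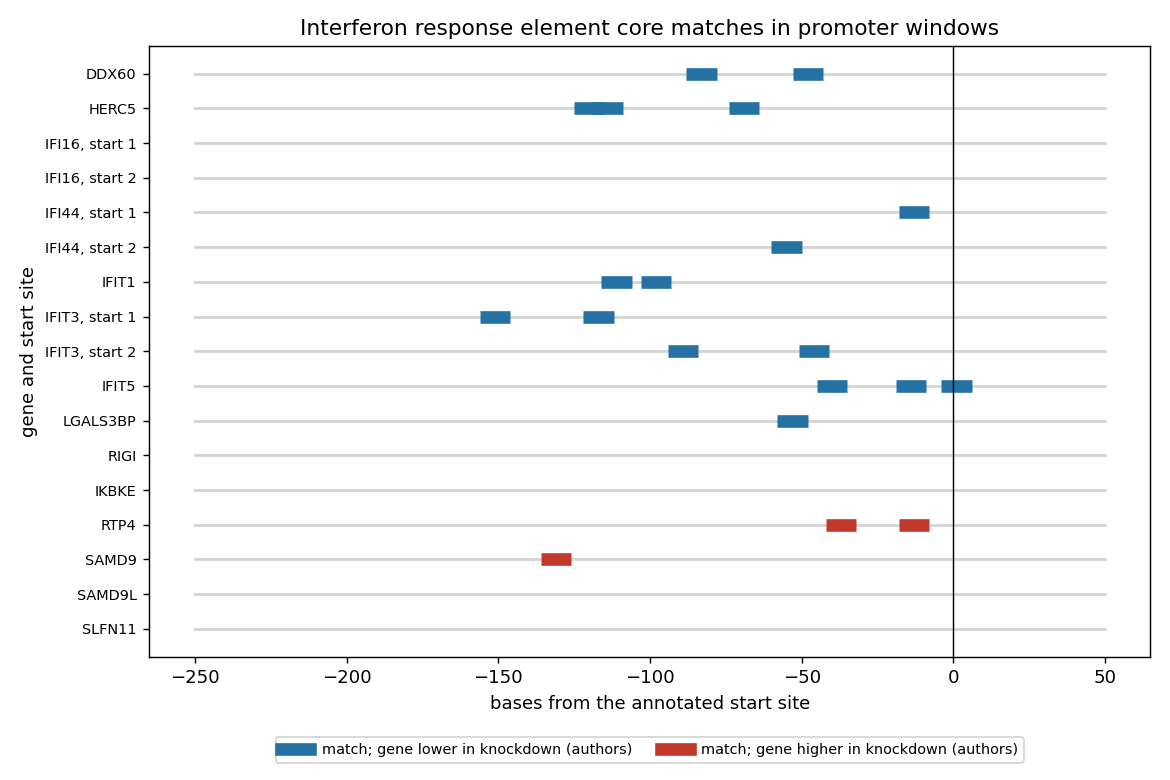
Position of each match to the interferon-stimulated core, in bases from the annotated start site, in the promoter windows of 14 listed interferon genes, 1 line per start site, blue where the authors listed the gene as lower and red where they listed it as higher. SAMD9 and RTP4 carry the only matches among the genes listed as higher.

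Fitted genes without a gene name were left out of the following ranking. The genes with the most similar profile to each member were named by Pearson's r of log2(value + 1) over the 6 libraries. For IFIT2 they were JMJD6, PLEKHA6 and HTATIP2 (r between 0.9988 and 0.9990), and for IFIT3 they were MYH15, SELENOS and HSPA6 (r of 0.9977, 0.9977 and 0.9976). For HERC5 they were MCU (0.9993), IDH1 (0.9958) and CYP19A1 (0.9957), and for SAMD9 they were LMLN, SGMS1-AS1 and ST6GAL2 (0.9981, 0.9979 and 0.9975). None of these 12 genes was in the interferon list. An r over 0.9 with IFIT2, IFIT3 and HERC5 was reached by 29.5%, 28.9% and 28.4% of the other 1289 fitted genes and with SAMD9 by 46.0%. The 6 points share 1 difference between the groups, which all these genes were selected for, so r mainly repeats the direction. Among the members r was 0.99 for IFIT2 with IFIT3, 0.99 for IFIT3 with HERC5 and 0.98 for IFIT2 with HERC5. For SAMD9 it was -0.89 with IFIT2, -0.92 with IFIT3 and -0.88 with HERC5, and 0.99 with its paralog SAMD9L.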

How the data were processed

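The authors deposited 1 table of 1877 genes, all marked as significant, for 6 libraries. Bowtie 0.12.2 and build hg19 appear, without a step, per the submitters' processing notes. The values per library that the authors deposited are a normalized signal of unstated scale, with their group means. Per the file headers, the table also holds the authors' fold ratio (knockdown over control), its log2 value, a p-value and an adjusted p-value, from a test that no header names. The signal was not counts, so limma 3.58.1 in R 4.3.3 (mean-variance trend, group alone, log2(value + 1), all 6 libraries) was used, with a call at adjusted p under 0.05. It was tested on simulated data. Of 1877 genes, 1290 with a value of at least 1 in 3 libraries were fitted.

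Groups and replicate numbers came from the sample titles. The 4 genes, the lists and the alternatives were chosen with earlier results of these data known. Genes named were the members, RNF5, the listed genes of the interferon and marker lists, listed neighbours, and 3 most similar genes per member. Genes without a name were left out of the last group. Python 3.11.15 was used for ratios, exact permutation tests, the motif search and figures. Gene models came from GENCODE release 29 (GRCh38), and promoters and gene order from RefSeq (GRCh38.p14). These builds differ from hg19 and were not used to place reads.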

Additional observations from a re-analysis of the deposited data

How the results depend on the processing

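The direction and call of IFIT3, HERC5 and SAMD9 held under every alternative that could be fitted, as did those of IFIT2. IFIT2 entered the main fit only through its control values and so had to differ. The log2 fold changes ranged from -3.74 to -1.61 for IFIT2 (11 alternatives), from -3.0 to -2.22 for IFIT3 (14), from -1.46 to -0.98 for HERC5 (15) and from 0.66 to 1.25 for SAMD9 (15). The alternatives were pseudocounts of 0.1 and 0.5, other filters, no trend, 2 scalings, the replicate block, each library left out, and, chosen after seeing the data, removal of a trend with transcript length. IFIT2 fell below the filter without any 1 control library or with a value of 1 required in all 6 libraries, and IFIT3 fell below the latter, so these fits gave no value. With that filter 802 of 816 genes passed, and 6 of 6 interferon genes (4 higher, 2 lower). With each library left out, between 1129 and 1188 genes were fitted and between 1076 and 1161 passed. Of the interferon genes, 10 were fitted without a control library and 11 without a knockdown library, and between 9 and 11 passed. Dividing the knockdown values by the median offset from the deposited fold changes moved the median of all genes from 0.73 to 0.61 and SAMD9 to 0.88, and centring each library moved the median to 0.36. Same-numbered libraries did not deviate together (r = -0.165, -0.071 and -0.082). These values cannot tell if such libraries were prepared as pairs, which the labels do not say. The replicate block gave 1272 changed genes, 12 interferon genes and the same log2 fold change for RNF5 (-4.06), IFIT2 (-1.66), IFIT3 (-2.34), HERC5 (-1.09) and SAMD9 (1.03). Depth is unknown, so the counting error of low values such as those of IFIT2 in the knockdown libraries (0.03 to 0.16) cannot be given.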
